A study of Mus musculus with 3 samples.

Results

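The genes described here are 10 chemokines made by the epithelium over intestinal lymphoid follicles or in the tissue beneath it: Ccl20, Ccl25, Ccl28, Cxcl16, Cx3cl1, Cxcl1, Cxcl2, Cxcl5, Cxcl9 and Cxcl10. They were taken from the array by gene symbol, as every probe set whose only annotated symbol is one of these names. This gave 20 probe sets for the 10 genes, out of 45101 probe sets and 18193 named genes in all. Chemokines are small secreted proteins that bind G protein-coupled receptors on leukocytes and steer their movement along a gradient. In the gut, CCL20, CCL25 and CCL28 draw lymphocytes to follicles, epithelium and plasma cell niches, CXCL16 and CX3CL1 are made as membrane-bound proteins and can be shed, CXCL1, CXCL2 and CXCL5 draw neutrophils, and CXCL9 and CXCL10 draw T cells under interferon.

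RNA was measured in follicle-associated epithelium (FAE) of the small intestine, the layer that covers lymphoid follicles and holds the antigen-sampling M cells. There were 2 arrays from mice depleted of RBP-J by VillinCre-Rbpjflox/flox and 1 array from mice with wild type RBP-J. All samples were untreated, on a C57BL/6 background, and the labels used here give neither age nor sex and do not say whether the wild type mice carried the Cre. RBP-J is the DNA-binding partner of Notch receptors, and the Villin promoter drives Cre in intestinal epithelium, so other cells in the preparation would keep the gene. The comparison asks how chemokine transcripts of the FAE differ once epithelial RBP-J is depleted. Whether the 2 depleted samples are separate animals is not stated, and their spread may therefore be technical only.

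Each value is an intensity in multiples of its array's median over all probe sets. Differences are on the log2(value + 0.248) scale, depleted minus wild type, and understate changes of dim genes. Rbpj read 2.72 and 5.74 in the depleted arrays, against 7.15 in wild type, with its brightest probe set, 4.14 and 4.92 against 5.37 with the next, and 2.30 and 4.21 against 3.79 with the remaining one. Xist read 42.8 and 43.4 in the depleted arrays and 0.297 in wild type, and the Y-linked Eif2s3y read 0.122 and 0.056 in the depleted arrays and 20.6 in wild type. These sex-linked genes split the arrays in the same way as genotype does. Genotype and sex therefore cannot be told apart in any result below. Over the 11885 genes tested, the log2 difference had a median of -0.003 in the first and 0.22 in the second depleted array. Bacterial and phage transcripts added before hybridisation (18 probe sets) had median differences of 0.08 in the first and 0.35 in the second. The ratio of 3' to 5' Gapdh control probe sets was 2.28 and 1.54 in the depleted arrays and 1.83 in wild type. All 10 of 10 epithelial markers were bright, reading at least 16.96 and 22.7 in the depleted arrays and 16.4 in wild type. They summed to 825 and 941 in the depleted arrays and 729 in wild type, with 9 higher and 1 lower in both. Markers of B cells, T cells and macrophages were also present, and RNA from a mixed preparation does not show which cell made a chemokine, nor whether fewer cells or less RNA per cell lie behind a lower value.

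None of the chemokines passed the test between depleted and wild type epithelium. limma called 0 of the 9 chemokines tested, where it called 0.0841% of all genes tested, and 0 had an unadjusted p under 0.05, where 2.27% of all genes had. The count was 0 under each of the 11 other settings tried, eBayes without trend included. The remaining member, Cxcl5, was too dim to be tested. Among the 9, 2 were higher than wild type in both depleted arrays (Ccl25 and Cx3cl1), 3 were lower in both (Cxcl1, Cxcl2 and Cxcl10), and the depleted arrays lay on either side of wild type for the other 4. Both differences of a gene share the wild type array, so a like sign in both is not independent support. Of all genes tested, 39.0% were higher in both, 19.5% lower in both and 41.5% on either side. The log2 differences of the 9 had medians of -0.19 in the first and 0.39 in the second depleted array. Set relative to the medians of all genes tested, 1 of the 9 was higher and 3 were lower in both depleted arrays, where 29.9% of all genes were higher and 29.9% lower. Of the 20 probe sets 15 passed the filter on dim values, of which 4 were higher in both, 3 lower in both and 8 on either side, against 37.0%, 21.3% and 41.7% of all such probe sets.

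**Figure D1:**
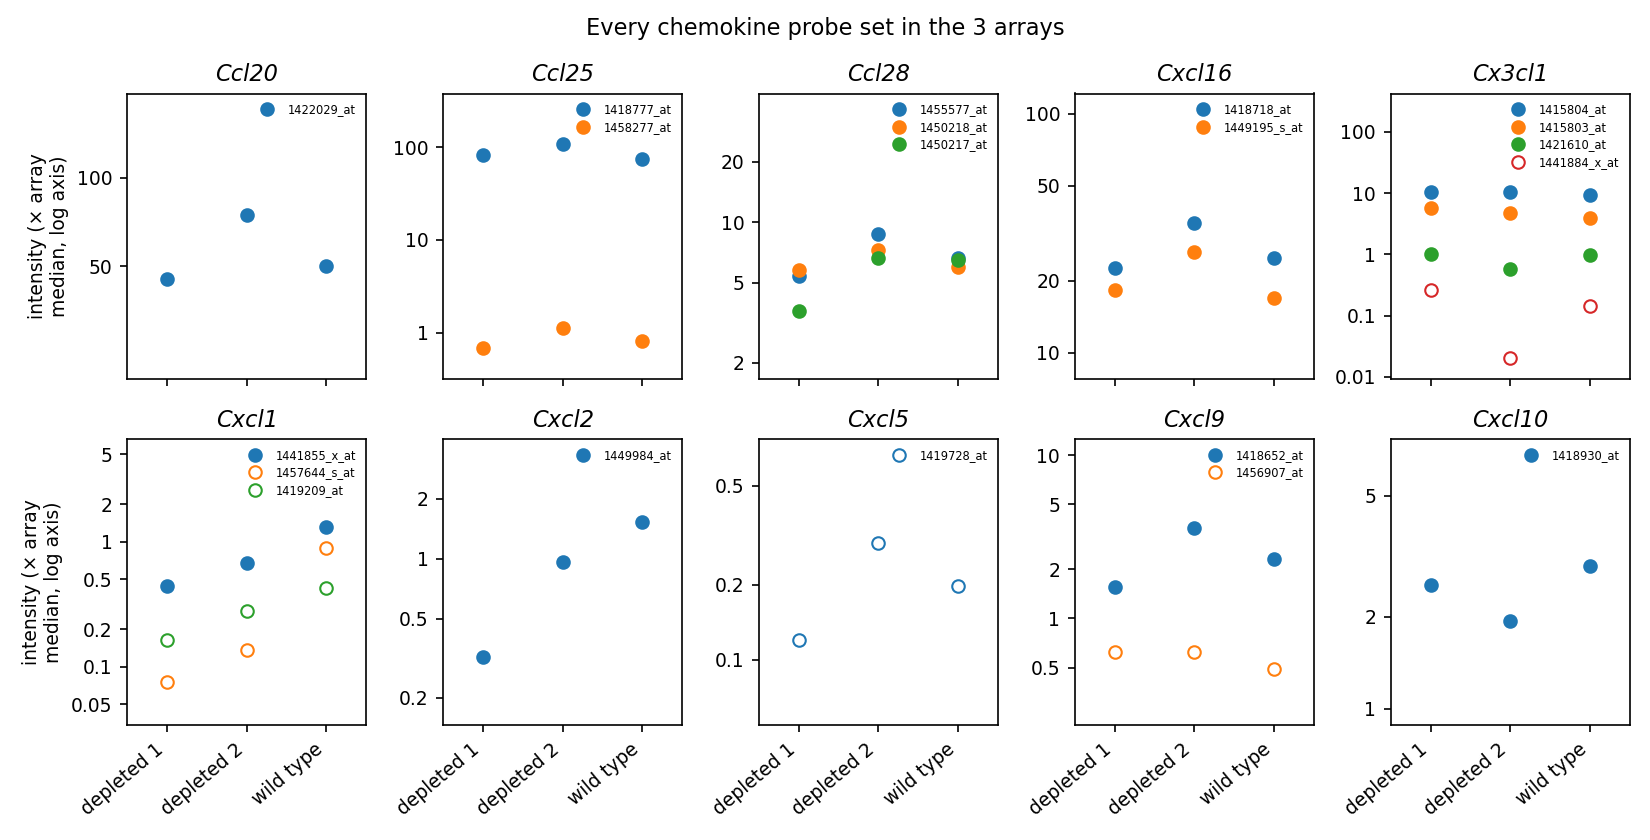
Intensity of every probe set of the 10 chemokines in the 2 depleted arrays and the wild type array, in multiples of the array median on log axes; each point is 1 array, each colour 1 probe set, and open points mark probe sets with a mean under 0.598 that were left out of the tests. All 3 probe sets of Cxcl1 are lower in both depleted arrays than in wild type, while Ccl20 lies at 45.2 and 74.6 on either side of the wild type value of 49.9.

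The neutrophil chemokines Cxcl1 and Cxcl2 lie near each other on chromosome 5, with Cxcl10 on the same chromosome and Ccl20 on chromosome 1. The 250 bases before the RefSeq transcription start are shown for these 4 genes (RefSeq, GRCm38.p6, 5′ to 3′ on the gene's strand), because the first 3 were lower in both depleted arrays and Ccl20 is the chemokine this epithelium is best known for. Capitals mark letters that match 3 motifs searched on both strands, the NF-kB type GGAANTTCC, the RBP-J core TGGGAA and the interferon-stimulated response element in the form GAAANNGAA. These forms of the motifs were settled after the windows had been read.
Cxcl1, chr5:90890995-90891244, plus strand: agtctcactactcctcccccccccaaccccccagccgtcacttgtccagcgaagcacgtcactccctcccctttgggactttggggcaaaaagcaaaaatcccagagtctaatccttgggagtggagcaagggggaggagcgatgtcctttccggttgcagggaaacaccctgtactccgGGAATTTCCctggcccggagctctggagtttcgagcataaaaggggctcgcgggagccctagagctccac
Cxcl2, chr5:90903649-90903898, plus strand: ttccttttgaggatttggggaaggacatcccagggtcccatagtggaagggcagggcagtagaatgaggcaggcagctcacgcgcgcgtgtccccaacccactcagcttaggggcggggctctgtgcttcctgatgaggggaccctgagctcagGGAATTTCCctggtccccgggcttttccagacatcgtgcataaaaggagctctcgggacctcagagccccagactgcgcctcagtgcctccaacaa
Cxcl10, chr5:92348890-92349139, minus strand: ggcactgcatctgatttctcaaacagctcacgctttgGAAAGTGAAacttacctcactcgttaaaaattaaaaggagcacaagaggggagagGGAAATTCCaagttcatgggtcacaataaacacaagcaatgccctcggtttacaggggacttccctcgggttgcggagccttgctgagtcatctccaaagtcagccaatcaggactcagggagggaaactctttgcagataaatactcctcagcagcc
Ccl20, chr1:83116516-83116765, plus strand: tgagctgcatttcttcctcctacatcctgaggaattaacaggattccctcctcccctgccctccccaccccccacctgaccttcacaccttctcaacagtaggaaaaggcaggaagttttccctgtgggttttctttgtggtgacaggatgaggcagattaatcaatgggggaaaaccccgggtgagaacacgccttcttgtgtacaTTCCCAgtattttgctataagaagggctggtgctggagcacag

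The Cxcl1 and Cxcl2 windows share a run of 14 bases, GGGAATTTCCCTGG, which starts 71 bases before the Cxcl1 start and 97 bases before the Cxcl2 start. It holds the NF-kB type motif as GGAATTTCC, from 70 to 62 bases before the start of Cxcl1 and from 96 to 88 bases before that of Cxcl2. Cxcl10 has 1 match to this motif and 1 to the interferon-stimulated response element, which Cxcl9 also matches. Of 32851 promoter windows of the same length, 0.813% hold the NF-kB type motif, 7.13% the interferon-stimulated response element and 21.6% the RBP-J core. Since the forms were settled after the windows had been read, these shares do not measure how unusual the matches are. Other forms of the NF-kB motif were not searched, so a window without a match, such as that of Ccl20, may still hold a related sequence. The RBP-J core letters occur in the Ccl20 and Cx3cl1 windows, once in each and on the minus strand, and not in those of Cxcl1, Cxcl2, Cxcl9, Cxcl10, Ccl25 or Ccl28. No matches of different motifs overlapped. Windows were found for 8 of the 10 genes, and a match of letters is a description of the sequence and not of binding.

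Cxcl1 and Cxcl2, the ligands of CXCR2 on neutrophils, were lower in both depleted arrays than in wild type with every probe set, and neither passed the test. The brightest Cxcl1 probe set, 1441855_x_at, read 0.444 and 0.671 in the depleted arrays and 1.32 in wild type. A second, 1457644_s_at, read 0.075 and 0.135 in the depleted arrays and 0.893 in wild type, and the third, 1419209_at, read 0.164 and 0.277 against 0.425 in wild type. The wild type value is the highest of the 3 arrays for each, so the groups do not overlap with any of the 3 probe sets. Only 1419209_at carries a name without the x or s suffix, which Affymetrix uses for probe sets with probes that can match other transcripts.

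For Cxcl1 the log2 difference was -1.18 in the first and -0.77 in the second depleted array with the brightest probe set, -1.82 and -1.58 with the second and -0.71 and -0.36 with the third. The fitted difference of the brightest was -0.97 (SE 0.62, 95% interval -2.19 to 0.24, limma adjusted p = 0.9997). Cxcl2 has 1 probe set, which read 0.320 and 0.959 in the depleted arrays and 1.53 in wild type. Its log2 difference was -1.65 in the first and -0.56 in the second depleted array, and the fitted difference was -1.10 (SE 0.61, 95% interval -2.30 to 0.09, limma adjusted p = 0.9997). Without the first depleted array the difference of Cxcl2 is thus -0.56.

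Cxcl1 and Cxcl2 are dim, which bears on how far these differences can be read. The Bacillus control probe sets of the array, whose transcripts mouse tissue does not make, read at most 0.308 and 0.381 in the depleted arrays and 0.286 in wild type (27 probe sets, set beside the chemokines after the values were seen). The depleted values of 1457644_s_at and 1419209_at lie within that range, and their wild type values lie above it. For 1441855_x_at and Cxcl2 all 3 values lie above it. Among the 1313 genes tested with a mean under 1, as Cxcl1 and Cxcl2 have, 27.0% were lower than wild type in both depleted arrays. Each of Cxcl1 and Cxcl2 had a log2 difference at or under -1 in 1 depleted array, as 4.38% of all genes tested, of any brightness, had in at least 1. That share was not counted among dim genes, whose differences spread more widely. In the first depleted array their quartiles were -0.36 and 0.46, against -0.11 and 0.21 for genes with a mean of at least 20. The 4.38% is therefore no measure of how rare such a difference is at this brightness. With a pseudocount of 1 or 5 both differences came out smaller, and over 9 alternatives the fitted difference ran from -1.15 to -0.19 for Cxcl1 and from -1.29 to -0.21 for Cxcl2, negative in each. These alternatives reuse the same 3 arrays, and those without a filter or a trend leave the fitted difference unchanged.

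Cxcl5, the third CXCR2 ligand here, read 0.120 and 0.296 in the depleted arrays and 0.198 in wild type. All 3 values lie within the range of the Bacillus control probe sets, and the depleted arrays lie on either side of wild type. Cxcr2, the receptor that neutrophils carry for these chemokines, read 0.212 and 0.055 in the depleted arrays and 0.262 in wild type, within the same range. Neutrophil markers, of which 9 of 11 are on the array and 2 were bright enough to be tested, summed to 1.73 and 5.5 in the depleted arrays and 3.58 in wild type. None was listed at 0. Of their best known members, S100a8 read 0.201 and 1.21 against 1.14 in wild type and S100a9 read 0.133 and 2.33 against 0.590 in wild type. This pair was lowest in the first and highest in the second depleted array, as the sum was. Csf3r shared that order, at 0.040 and 0.445 against 0.287 in wild type, and the other markers did not. Ltf, a granule protein, read 0.225 and 0.254 against 0.627 in wild type, and Mpo, the myeloperoxidase, read 0.457 and 0.313 against 0.045. Of the 9 markers 4 were highest in wild type, as Cxcl1 and Cxcl2 were (Ltf, Elane, Ngp and Cxcr2), 2 were higher in both depleted arrays and 3 lay on either side. The part of neutrophils in the chemokine values was not tested.

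**Figure D2:**
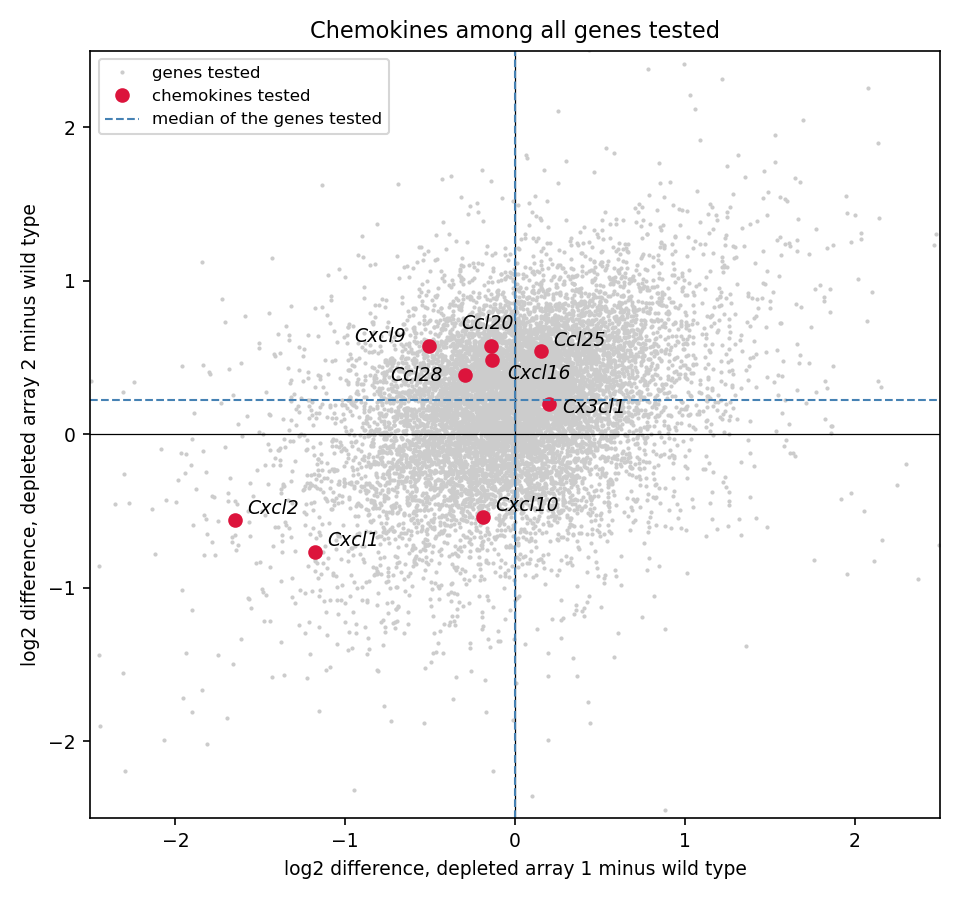
Log2 difference of each gene tested from wild type in the first depleted array (horizontal) against the second (vertical), with the 9 chemokines tested in red, all other genes tested in grey and dashed lines at the median of all genes tested (-0.003 and 0.22); the 2 axes share the wild type array, so their values are not independent, and the few genes beyond the axes are not drawn. Cxcl1, Cxcl2 and Cxcl10 lie in the lower left, and Ccl20, Ccl28, Cxcl16 and Cxcl9 lie in the upper left, below wild type in one depleted array and above it in the other.

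Ccl20, the ligand of CCR6 and the chemokine that draws B cells and dendritic cells under the FAE, read 45.2 and 74.6 in the depleted arrays and 49.9 in wild type. The depleted arrays lay on either side of wild type, with an SD of 0.51 between them against a fitted difference of 0.22 (SE 0.40, 95% interval -0.56 to 0.996, limma adjusted p = 0.9997). The interval holds differences of either sign, so these arrays do not show that Ccl20 stayed the same. Ccr6, its receptor, read 3.01 and 5.02 in the depleted arrays and 5.44 in wild type (fitted difference -0.46, SE 0.50, limma adjusted p = 0.9997). B cells carry Ccr6, and the 9 B cell markers on the array of 10 listed summed to 27.8 and 67.9 in the depleted arrays and 54.6 in wild type, none at 0, a sum carried by the immunoglobulin chain Ighm and the receptor chain Cd79a. Of the 9 markers, 4 were lower in both depleted arrays, as Ccr6 was (Ms4a1, Cd22, Pax5 and Cr2), 1 was higher in both and 4 lay on either side. Ms4a1, which encodes CD20, read 4.12 and 6.73 in the depleted arrays against 11.1 in wild type, and none of the 9 was called. The part of B cells in the Ccr6 values was not tested.

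Ccl25, the ligand of CCR9 that draws T cells and plasma cell precursors to the small intestine, was higher in both depleted arrays with its bright probe set. That probe set read 82.5 and 109 in the depleted arrays and 74.3 in wild type, a fitted difference of 0.35 (SE 0.37, 95% interval -0.38 to 1.08, limma adjusted p = 0.9997). A dim probe set, 1458277_at, read 0.690 and 1.12 against 0.815 in wild type, on either side of it. Ackr4, an atypical receptor that takes up CCL25 without signalling, was also higher in both, at 33.1 and 42.8 in the depleted arrays against 26.0 in wild type. Its other probe sets did the same, at 29.3 and 35.2 against 21.7 and at 0.790 and 1.24 against 0.375. The fitted difference of Ackr4 was 0.53 (SE 0.42, limma adjusted p = 0.9997) and did not pass the test, as neither of the 2 genes tested of 5 atypical receptors on the array did. Ccr9 had 5 probe sets that did not share a direction, of which the brightest read 2.98 and 4.92 in the depleted arrays and 4.48 in wild type. The probe set 1436065_at read 1.53 and 1.22 against 2.78 in wild type, and 1427419_x_at read 3.74 and 2.64 against 3.05.

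Ccl28, which draws IgA plasma cells through CCR10, had 3 probe sets of similar brightness. In the depleted arrays 1455577_at read 5.38 and 8.78 against 6.66 in wild type, 1450218_at read 5.80 and 7.28 against 5.99, and 1450217_at read 3.64 and 6.65 against 6.53. Each was lowest in the first and highest in the second depleted array, so the groups overlap with every probe set. The fitted difference of the brightest was 0.05 (SE 0.48, 95% interval -0.90 to 0.995, limma adjusted p = 0.9997). Its receptors were dim, with Ccr10 at 0.606 and 0.592 in the depleted arrays against 0.542 in wild type and Ccr3 at 0.564 and 0.451 against 0.500, and neither was tested.

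The membrane-bound chemokines were measured by several probe sets each. Cxcl16, the CXCR6 ligand and a scavenger receptor for oxidised lipid, read 22.6 and 34.8 in the depleted arrays and 24.8 in wild type with 1418718_at. Its other probe set, 1449195_s_at, read 18.3 and 26.4 against 17.02 in wild type. The first puts the depleted arrays on either side of wild type and the second puts both above it, by little in the first array. The fitted difference of the brighter was 0.18 (SE 0.43, 95% interval -0.67 to 1.02, limma adjusted p = 0.9997).

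Cx3cl1, or fractalkine, the ligand of CX3CR1 on mononuclear phagocytes, read 10.6 in both depleted arrays and 9.19 in wild type with its brightest probe set. A second probe set, 1415803_at, read 5.61 and 4.69 in the depleted arrays and 3.99 in wild type, so that both bright probe sets were above wild type in both arrays. Set relative to the medians of all genes tested, the log2 differences of this pair were 0.20 and 0.47 in the first depleted array, but -0.03 and -0.004 in the other. Of the dim probe sets, 1421610_at read 1.03 and 0.580 against 0.963 in wild type, and 1441884_x_at read 0.257 and 0.020 against 0.143, within the range of the Bacillus control probe sets. The fitted difference of the brightest was 0.20 (SE 0.47, 95% interval -0.73 to 1.12, limma adjusted p = 0.9997), where the SD between the depleted arrays was 0.005, since limma takes most of the spread from genes of similar brightness.

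Adam10 and Adam17, the proteases that release CXCL16 and CX3CL1 from the membrane, and Rhbdf2, which brings ADAM17 to the surface, were all tested and 0 of the 3 were called. Adam10 read 45.1 and 64.9 in the depleted arrays and 49.9 in wild type. Adam17 read 9.42 and 9.68 against 9.35, and Rhbdf2 read 3.95 and 5.15 against 3.39. The differences of Adam17 were the smallest of the 3, at 0.01 and 0.05 on the log2 scale, while its dimmer probe set 1421859_at gave -0.27 and 0.94.

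The bright chemokines were all higher in the second depleted array than in the first, apart from Cx3cl1, and so was the array in general. Of the 9 chemokines tested, 7 read higher in the second depleted array, a count that was not made over all genes tested. The median log2 difference of the second array grew with brightness, from 0.08 for the 1313 genes with a mean under 1 to 0.14 for means of 1 to 5, 0.25 for means of 5 to 20 and 0.34 for the 1847 genes with a mean of at least 20. In the first depleted array the same classes had medians between -0.04 and 0.07. Ccl20, Ccl25 and Cxcl16, in the brightest class, had differences of 0.58, 0.55 and 0.48 in the second depleted array, where the quartiles of that class were 0.17 and 0.52, and of -0.14, 0.15 and -0.13 in the first, where they were -0.11 and 0.21. Ccl28 and Cx3cl1, in the class of 5 to 20, had 0.39 and 0.20 in the second, between the quartiles of -0.01 and 0.49. Scaled to the added bacterial and phage transcripts, a setting chosen after the data were seen, the fitted difference of Ccl28, Cxcl16, Cx3cl1 and Cxcl9 turned negative.

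**Figure D3:**
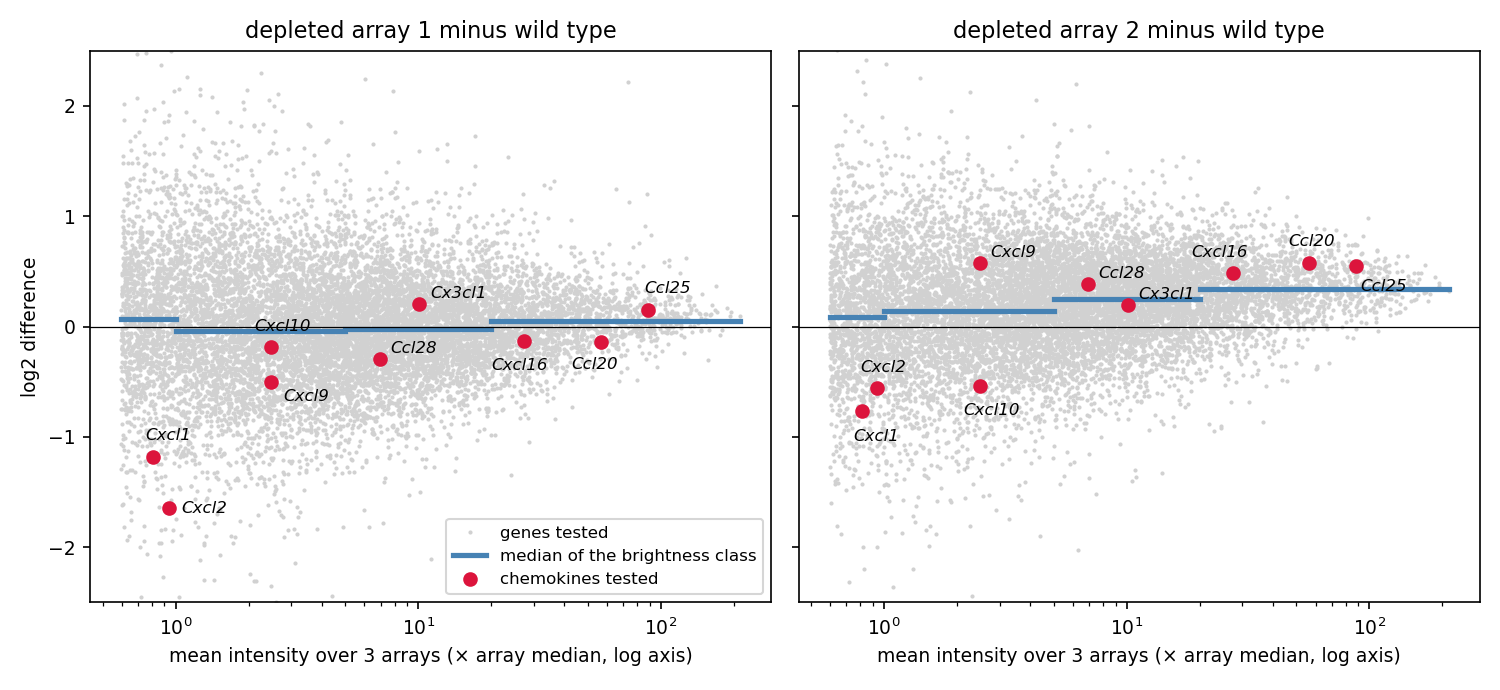
Log2 difference from wild type in the first (left) and second (right) depleted array against the mean intensity over the 3 arrays on a log axis, with genes tested in grey, chemokines in red and bars at the median of 4 brightness classes. In the right panel the bars climb from 0.08 to 0.34 and Ccl20, Ccl25 and Cxcl16 lie above the brightest bar, while Cxcl1, Cxcl2 and Cxcl10 lie below 0 in both panels; a few genes beyond the vertical axis are not drawn.

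Cxcl9 and Cxcl10, the interferon-induced ligands of CXCR3 that are both encoded on chromosome 5, did not share a direction. Cxcl9 read 1.56 and 3.57 in the depleted arrays and 2.31 in wild type with its brighter probe set, on either side of wild type, and 0.625 in both depleted arrays against 0.489 in wild type with 1456907_at. Its fitted difference was 0.03 (SE 0.52, 95% interval -0.995 to 1.06, limma adjusted p = 0.9997). Cxcl10 read 2.55 and 1.94 in the depleted arrays and 2.94 in wild type, lower in both, with a fitted difference of -0.37 (SE 0.52, 95% interval -1.39 to 0.66, limma adjusted p = 0.9997). The other CXCR3 ligand, Cxcl11, read 9.81 and 4.55 against 7.11 in wild type, and its dimmer probe set read 2.80 and 1.25 against 1.40. Cxcl10 and Cxcl11 were thus lower in the second depleted array than in the first, where Cxcl9 was higher. Cxcr3 itself read 0.915 and 1.02 in the depleted arrays against 1.05 in wild type.

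Macrophages and dendritic cells are a known source of CXCL9 and CXCL10. Their 15 markers, all on the array, summed to 170 and 241 in the depleted arrays and 166 in wild type, none at 0, with Cd74, which epithelium under interferon also makes, the brightest at 84.7 and 126 against 71.5. Without Cd74 the other 14 summed to 85.7 and 115 in the depleted arrays and 94.7 in wild type, on either side of wild type. Lyz2 carried that sum, at 55.7 and 70.0 in the depleted arrays against 56.8 in wild type. Cxcl9 had the same order, but so had Ccl20, Ccl28 and Cxcl16, and 41.5% of all genes tested lay on either side. With Cd74 the sum was higher in both depleted arrays. Of the 15 markers 3 were higher and 5 lower in both depleted arrays and 7 lay on either side, and the part of these cells in the chemokine values was not tested. Of the 17 interferon gamma pathway genes on the array of 19 listed, 16 were tested and 0 were called, with 4 higher and 4 lower in both depleted arrays and medians of -0.25 and 0.13. Irgm1, an interferon-induced GTPase, read 2.78 and 2.61 in the depleted arrays against 5.14 in wild type, and Igtp, of the same family, read 8.58 and 13.4 against 16.3. Ifngr2, a chain of the interferon gamma receptor, read 33.1 and 49.1 against 25.6, and Jak2, the kinase bound to it, read 31.6 and 31.7 against 25.2. Dimmer probe sets of Ifngr2 and Jak2 read 1.79 and 2.75 against 2.599 and 5.61 and 8.78 against 8.65, on either side of wild type. Irf1, the interferon-induced factor that activates Cxcl9 and Cxcl10, read 26.0 and 32.0 against 29.2 in wild type.

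None of the receptors of these chemokines passed the test. Of the 8 receptor genes 4 were tested and 0 were called, with 3 lower in both depleted arrays and medians of -0.68 and -0.07. Over all genes tested 19.5% were lower in both, and the medians were -0.003 and 0.22. With 4 genes tested, and both differences sharing the wild type array, the count does not show a change of the receptors as a group. Cxcr6, the CXCL16 receptor of T cells and innate lymphocytes, read 0.618 and 0.839 in the depleted arrays and 1.69 in wild type, and 0.442 and 0.446 against 0.735 with its other probe set. Both probe sets were below wild type in both depleted arrays, and the fitted difference was -1.0 (SE 0.59, 95% interval -2.16 to 0.16, limma adjusted p = 0.9997). Cx3cr1 read 0.308 and 0.190 in the depleted arrays against 1.27 in wild type with its brighter probe set, and 0.286 and 0.499 against 0.483 with the other, so the probe sets did not go the same way, and neither was bright enough to be tested. The depleted values of the brighter are no higher than the brightest Bacillus control probe set of their array. The 11 T cell and intraepithelial lymphocyte markers on the array of 12 listed summed to 53.5 and 71.2 in the depleted arrays and 61.3 in wild type, none at 0. That sum put the depleted arrays on either side of wild type, as 7 of the 11 markers did, with 2 higher and 2 lower in both, and its part in the Cxcr6 values was not tested.

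**Figure D4:**
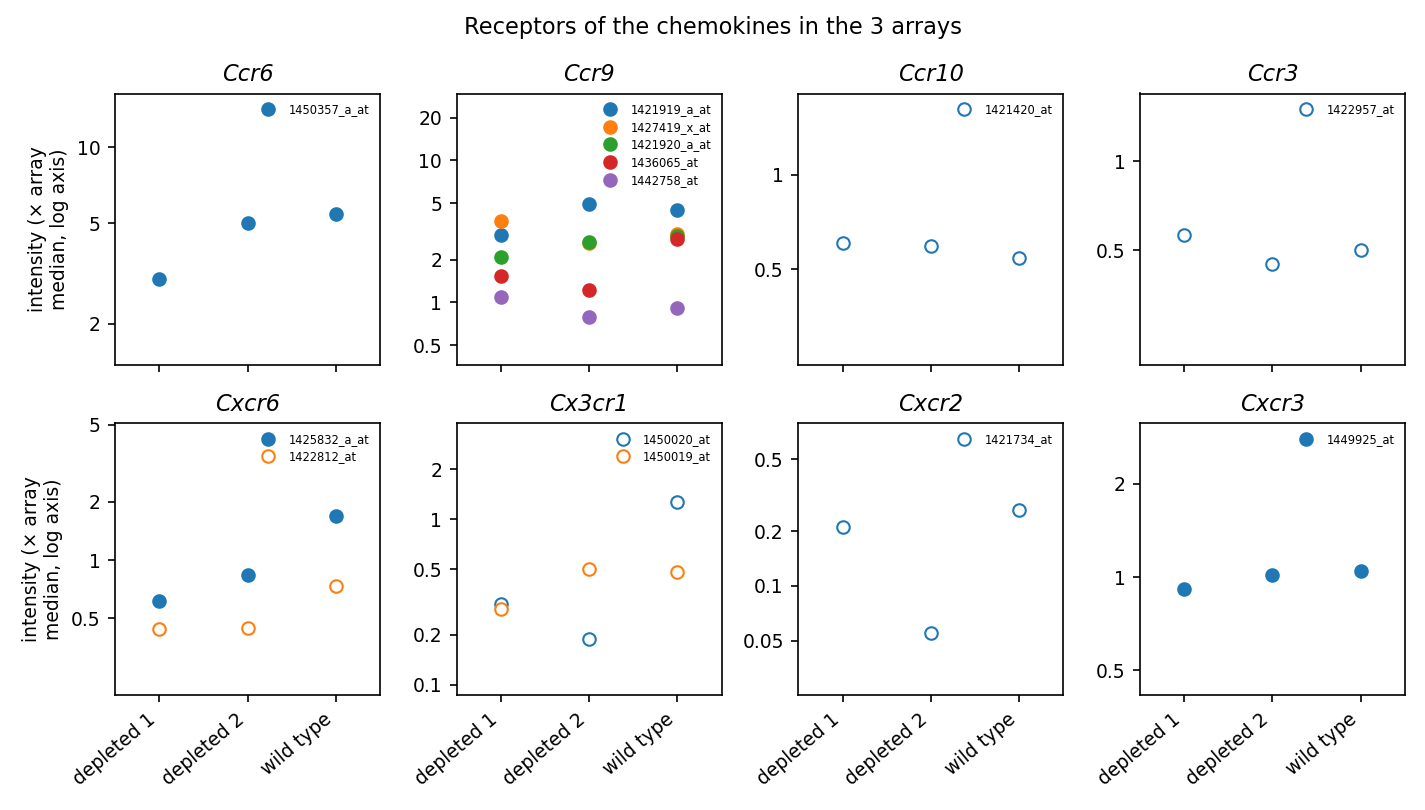
Intensity of every probe set of the 8 receptors of the chemokines in the 2 depleted arrays and the wild type array, in multiples of the array median on log axes, with open points for probe sets with a mean under 0.598. Both probe sets of Cxcr6 lie below wild type in both depleted arrays, and Ccr6 lies at 3.01 and 5.02 against 5.44 in wild type.

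Genes of the signalling that switches the chemokines on, its inhibitors included, were not all on the same side of wild type. NF-kB is the factor through which Toll-like receptors, TNF, RANKL and interleukin 17 induce Ccl20, Cxcl1, Cxcl2 and Cxcl5. Of 24 genes of NF-kB and interleukin 17 signalling on the array of 26 listed, 21 were tested and 0 were called, with 9 higher and 3 lower in both depleted arrays and medians of 0.04 and 0.33. Over all genes tested, 39.0% were higher and 19.5% lower in both, with medians of -0.003 and 0.22. Nfkbie, an inhibitor of NF-kB, read 10.7 and 10.9 in the depleted arrays against 5.90 in wild type with its brighter probe set, and 5.18 and 7.81 against 7.68 with the other. Relb, of the alternative pathway downstream of RANK, read 10.8 and 12.3 against 7.92. Nfkbia, the main inhibitor and itself a target, read 75.1 and 85.3 against 59.0 with its brightest probe set. Its probe sets 1449731_s_at and 1420088_at were also higher in both, while 1438157_s_at and 1448306_at lay on either side of wild type. Myd88, the adaptor of Toll-like and interleukin 1 receptors, was lower in both, at 4.004 and 4.69 against 6.79. Nfkbiz, a cofactor for interleukin 17 targets such as Cxcl1, read 23.6 and 28.0 against 31.2 with its brightest probe set. Its probe set 1448728_a_at was also lower in both, and 1457404_at lay on either side of wild type.

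Among 23 other chemokines on the array of 24 listed, 11 were tested, 0 were called, 5 were higher and 2 lower in both depleted arrays, and the medians were 0.25 and 0.16. Among the 11 tested, Ccl6 had the largest fitted difference, at 53.9 and 33.0 in the depleted arrays against 21.4 in wild type (fitted difference 0.97, SE 0.42, limma adjusted p = 0.9997). Its second probe set read 58.8 and 21.0 against 19.8, so the difference lies mostly in the first depleted array there. Ccl9, a chemokine of the FAE, read 58.6 and 54.8 against 49.1 in wild type, and 11.8 and 12.6 against 9.77 with its other probe set. Ccl2 read 1.99 and 1.502 against 1.04, Xcl1 read 1.07 and 1.74 against 0.781, and Ccl4 read 0.616 and 0.981 against 0.432. Some that were too dim to be tested had larger log2 differences, 2.001 and 1.43 for Cxcl14, 1.29 and 1.04 for Cxcl3 and -1.57 and -1.07 for Ccl22. The dimmer Cxcl14 probe set went the other way, at -0.47 and -0.99. In wild type Cxcl14 read 0.009 with the brighter probe set and Cxcl3 read 0.012. These values and the depleted values of Ccl22, 0.075 and 0.207, lie within the range of the Bacillus control probe sets.

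The SD between the 2 depleted arrays, set beside the fitted difference from wild type, was not alike over the chemokines. It was 0.76 beside a difference of 0.03 for Cxcl9, and 0.29 beside -0.97 for Cxcl1. The fitted difference was larger than the SD between the depleted arrays for 5 of the 9 chemokines tested, Ccl25, Cx3cl1, Cxcl1, Cxcl2 and Cxcl10. This was not counted over all genes tested, so the 5 of 9 cannot be read as particular to the chemokines. The median of that SD over the 9 was 0.44 on the log2 scale, where the medians over all genes tested lay between 0.23 and 0.31 in the 4 brightness classes. The fitted differences of Ccl25, Cxcl1, Cxcl2 and Cxcl10 kept their sign under every alternative that gave a value, and none passed the test under any. All alternatives use the same 3 arrays, and some, such as another filter or no trend, leave the fitted difference unchanged. A kept sign is therefore not independent support.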

How the data were processed

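Biotin-labelled cRNA of follicle-associated epithelium was hybridised to Affymetrix arrays, 2 from RBP-J depleted and 1 from wild type mice, per the labels' protocols. The submitters deposited linear intensities, for which their processing notes name MAS5, and each array has a median of 1. Scaling to the median cannot remove a shift that depends on brightness. Scanner output was not analysed here. Symbols came from the platform annotation (34945 probe sets with 1 symbol, 932 with several and 9160 with none), and probe sets without a single symbol were left out of gene results.

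A gene took the values of its brightest probe set by mean. The 11885 genes with a mean of at least 0.598 (40th percentile) were fitted on log2(value + 0.248), the pseudocount being the 25th percentile of all values, with limma 3.58.1 in R 4.3.3 (eBayes with an intensity trend). A gene was called at a Benjamini-Hochberg adjusted p under 0.05. The spread is that of the depleted pair, with 1 residual degree of freedom per gene, and the wild type array is taken to vary likewise. The fit was tested on simulated data. Precision is limited by the number of arrays. Other pseudocounts, filters, scalings, probe set rules and variance models were tried. The members, lists and tests were chosen with earlier results of these data known. The text names all members and their receptors, and from each list up to 4 tested genes, by the size of the lesser of 2 differences of like sign. Adam10, Ccl5, Ccl9, Ccl22, Cxcl3, Cxcl11, Cxcl13, Cxcl14, Irf1, Nfkbiz and the markers of other cells were added after their values were seen.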

Additional observations from a re-analysis of the deposited data

How the results depend on the processing

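limma called 10 genes over the whole array with the settings of the report, 1 with no filter on dim genes, 6 with the filter at the 60th percentile (where Cxcl1 and Cxcl2 give no value), 3 with quantile normalization, 4 with arrays set to a common 75th percentile, 6 when centred on the median of the genes tested, 21 over single probe sets and 5 when scaled to the hybridisation controls (chosen after the data were seen). No chemokine was called under any of these or the other alternatives, at adjusted p values of at least 0.9997. Fitted differences changed sign with quantile normalization for Ccl20 (-0.007), Ccl28 (-0.05), Cxcl16 (-0.011) and Cxcl9 (-0.015), with the common 75th percentile for Ccl28 (-0.024) and Cxcl9 (-0.035), when centred for Ccl28 (-0.035) and Cxcl9 (-0.047), with the mean of all probe sets for Ccl28 (-0.077), and with the hybridisation controls for Ccl28 (-0.158), Cxcl16 (-0.033), Cx3cl1 (-0.007) and Cxcl9 (-0.161). The cause was not tested. With 1 depleted array left out there is a value and no test: the difference ran from -0.143 to 0.578 for Ccl20, from -0.295 to 0.387 for Ccl28, from -0.133 to 0.484 for Cxcl16, from -0.506 to 0.574 for Cxcl9 and from -1.65 to -0.56 for Cxcl2. No paired analysis was possible because there is 1 wild type array. Values of Cxcl1, Cxcl2 and Cxcl5 lie near those of control probe sets, so signal over background limits what can be read.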

Other observations

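Chemokines that organise lymphoid tissue outside the epithelium were also on the arrays. Cxcl13, made by follicular stroma and drawing B cells, read 1.05 and 1.62 in the depleted arrays and 1.75 in wild type. Ccl22, a dendritic cell product that draws regulatory T cells, read 0.075 and 0.207 in the depleted arrays and 0.708 in wild type, and was too dim to be tested. Ccl5, made by T cells and intraepithelial lymphocytes, read 13.2 and 17.5 in the depleted arrays and 13.5 in wild type. Markers of stroma summed to 16.7 and 23.3 in the depleted arrays and 17.4 in wild type. Vim carried this sum, at 12.3 and 16.6 against 13.0, and 4 of the 11 markers on the array were bright enough to be tested. Of the 11, 6 were higher and 3 lower in both depleted arrays and 2 lay on either side. Markers of the FAE and its M cells summed to 376 and 481 in the depleted arrays against 344 in wild type. Of these 10 markers 6 were higher and 1 lower in both depleted arrays, and 3 lay on either side. Among the latter were Gp2, at 9.90 and 32.6 against 19.8 in wild type, and Spib, at 33.8 and 67.6 against 38.9. Sox8 was the marker lower in both, at 5.62 and 9.53 against 9.67, and none of the 10 was called.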
